A study of Mus musculus with 6 samples.

Results

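The cytochrome P450 family 4 fatty acid hydroxylases were examined in hepatic mRNA of male C57BL/6 mice aged 21 weeks. There were 3 WT mice and 3 heterozygous PAI-1 deficient mice (*Pai-1*+/-), all eating standard chow freely and given no drug. The *Pai-1*+/- animals carried 1 null allele in every cell, as offspring of *Pai-1*-/- and WT parents, and RNA was taken from whole liver. The family was represented by a preset list of 10 gene symbols, which was chosen with earlier results of these data known. All 10 symbols were found in the authors' table of the genotype comparison, which lists 24421 genes. They were 6 Cyp4a genes (*Cyp4a10*, *Cyp4a12a*, *Cyp4a12b*, *Cyp4a14*, *Cyp4a31* and *Cyp4a32*), 3 Cyp4f genes (*Cyp4f13*, *Cyp4f14* and *Cyp4f15*) and *Cyp4v3*. The level of a gene is given as the authors' mean normalized count, which is the read count divided by a size factor and averaged over the libraries of both genotypes. It is a level of neither genotype alone. The columns of counts per animal could not be tied to the labelled samples and the authors' own fold changes and p-values were not used, so the effect of *Pai-1* heterozygosity on these genes is not given here, and the *Pai-1* transcript itself could not be checked by genotype. Values per mouse were not used either, although a spread over all animals would not need their genotype. The levels therefore carry no SD and no test, and whether neighbouring genes in an order differ beyond the spread between mice was not determined.

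Family 4 enzymes sit in the endoplasmic reticulum and place a hydroxyl group on the terminal, or omega, carbon of fatty acids and related lipids. Alcohol and aldehyde dehydrogenases then turn the product into a dicarboxylic acid, which peroxisomes shorten by beta-oxidation. Cyp4a enzymes act on medium- and long-chain fatty acids, among them arachidonic acid, and *Cyp4a10* and *Cyp4a14* are textbook targets of the nuclear receptor PPARα in liver. Cyp4f enzymes are known for the hydroxylation of leukotrienes, very-long-chain fatty acids and the side chains of vitamins E and K. *Cyp4v3* is the mouse counterpart of human CYP4V2, the gene mutated in Bietti crystalline dystrophy of the retina.

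All 10 genes encode the loop that holds the heme iron through a cysteine, which a script found once in each translation. The coding sequence around it is shown because it shows how closely some members resemble each other over the length of a read. Each run is 75 coding bases, the read length of the study, 5′ to 3′ on the coding strand, and spans 1 splice junction. The cysteine codon lies at bases 46 to 48. Capitals mark bases that differ from *Cyp4a10* in the Cyp4a genes and from *Cyp4f14* in the Cyp4f genes.
Cyp4a10, Cyp4a31 and Cyp4a32: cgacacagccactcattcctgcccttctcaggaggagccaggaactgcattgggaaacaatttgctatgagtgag
Cyp4a12a and Cyp4a12b: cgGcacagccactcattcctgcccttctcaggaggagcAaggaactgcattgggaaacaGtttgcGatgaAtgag
Cyp4a14: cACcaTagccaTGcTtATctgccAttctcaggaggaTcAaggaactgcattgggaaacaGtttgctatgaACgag
Cyp4f14: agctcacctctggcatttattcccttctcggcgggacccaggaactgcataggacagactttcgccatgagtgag
Cyp4f13: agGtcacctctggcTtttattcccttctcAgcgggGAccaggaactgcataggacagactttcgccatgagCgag
Cyp4f15: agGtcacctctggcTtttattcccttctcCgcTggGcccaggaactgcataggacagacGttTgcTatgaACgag
Cyp4v3: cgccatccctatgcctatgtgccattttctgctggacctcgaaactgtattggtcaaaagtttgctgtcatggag

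A read that covered this stretch exactly would be the same letters from *Cyp4a10*, *Cyp4a31* or *Cyp4a32*, and the same from *Cyp4a12a* or *Cyp4a12b*. *Cyp4a12a* and *Cyp4a12b* differed from *Cyp4a10* at 5 of the 75 bases and *Cyp4a14* at 14. Within the Cyp4f genes, *Cyp4f14* differed from *Cyp4f13* at 6 bases and from *Cyp4f15* at 10, and *Cyp4f13* differed from *Cyp4f15* at 7. *Cyp4a10* and *Cyp4f14* differed at 27 bases and *Cyp4a10* and *Cyp4v3* at 29. On the mm10 genome (GRCm38, GENCODE M21 gene models), the *Cyp4a10* stretch lay within chr4:115529478-115532564 on the plus strand, in exons 11 and 12 of 13. The matching stretches of *Cyp4a31* and *Cyp4a32* lay within chr4:115574926-115577969 and chr4:115614856-115621467, plus strand, and those of *Cyp4a12a* and *Cyp4a12b* within chr4:115328962-115331867 and chr4:115435216-115438090, plus strand. The *Cyp4a14* stretch lay within chr4:115487278-115489829 on the minus strand. These 5 genes have it in exons 11 and 12 of 12. The *Cyp4f14* stretch lay within chr17:32905645-32906089, minus strand, in exons 11 and 12 of 12. In *Cyp4f13* (chr17:32924921-32925364, minus strand) and *Cyp4f15* (chr17:32702374-32702822, plus strand) it fell in exons 12 and 13 of 13. The *Cyp4v3* stretch lay within chr8:45307086-45308431, minus strand, in exons 10 and 11 of 11. The first 41 bases came from the upstream exon in all 6 Cyp4a and all 3 Cyp4f genes, and the first 52 bases in *Cyp4v3*, so the splice junction of *Cyp4v3* fell after the cysteine codon and that of the other 9 genes before it.

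*Cyp4a14* and *Cyp4a10* were far more abundant than the other members. Because a long transcript gives more reads than a short one, genes are compared by the mean normalized count per kilobase of the longest annotated transcript. *Cyp4a14* had a mean normalized count of 156031, or 62513 per kilobase, which ranked 27 among the 23334 genes of the table that matched 1 annotated gene by symbol. *Cyp4a10* had a mean normalized count of 77987, or 36978 per kilobase, and ranked 50. The level of *Cyp4a14* per kilobase was 1.69 times that of *Cyp4a10*, and the level of *Cyp4a10* was 8.91 times that of *Cyp4v3*, the next member in the order. The ratio of *Cyp4a10* to *Cyp4v3* was 5.09 per kilobase of coding length and 4.93 without length. Levels per kilobase of coding length divide the same mean normalized count, which was not limited to reads from coding bases. For scale, the median of the 12499 genes with a mean normalized count above 10 and an annotated length was 129 per kilobase.

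The other 4 Cyp4a genes were at much lower levels. *Cyp4a12a*, which is the main arachidonic acid omega-hydroxylase of the mouse kidney and is male-biased there, had a mean normalized count of 6972 and 2879 per kilobase. Its near-copy *Cyp4a12b* had 3115 and 1301 per kilobase, so *Cyp4a12a* was 2.21 times as high per kilobase. *Cyp4a32* had 3121 and 2040 per kilobase. *Cyp4a31* had 1420 and 566 per kilobase, the lowest level of the 10 members on this scale and 65.3 times below *Cyp4a10*. The gene model of *Cyp4a32* ends at its coding bases and holds no UTR, so its level is per kilobase of coding length, while the other models include UTRs.

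The 3 Cyp4f members covered a narrower range than the 6 Cyp4a members. This holds for the listed genes and not for the subfamilies. Genes outside the list reached down to 0.113 per kilobase for *Cyp4f37* and 0.316 for *Cyp4a30b*. *Cyp4f15* had a mean normalized count of 5046 and 2327 per kilobase. *Cyp4f14*, a leukotriene hydroxylase, had 4318 and 1944 per kilobase. *Cyp4f13* had 2008 and 1146 per kilobase. *Cyp4f15* was 1.20 times *Cyp4f14* and 2.03 times *Cyp4f13* per kilobase, against a range of 110-fold between *Cyp4a14* and *Cyp4a31*. Over merged exons the range of the Cyp4f genes was 4.89-fold and that of the Cyp4a genes 106-fold. *Cyp4v3* had a mean normalized count of 15811, the third among the members, and 4152 per kilobase over its transcript of 3808 bases, a level 1.78 times that of *Cyp4f15*. This ratio was 3.19 per kilobase of coding length and 3.13 without length.

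**Figure D1:**
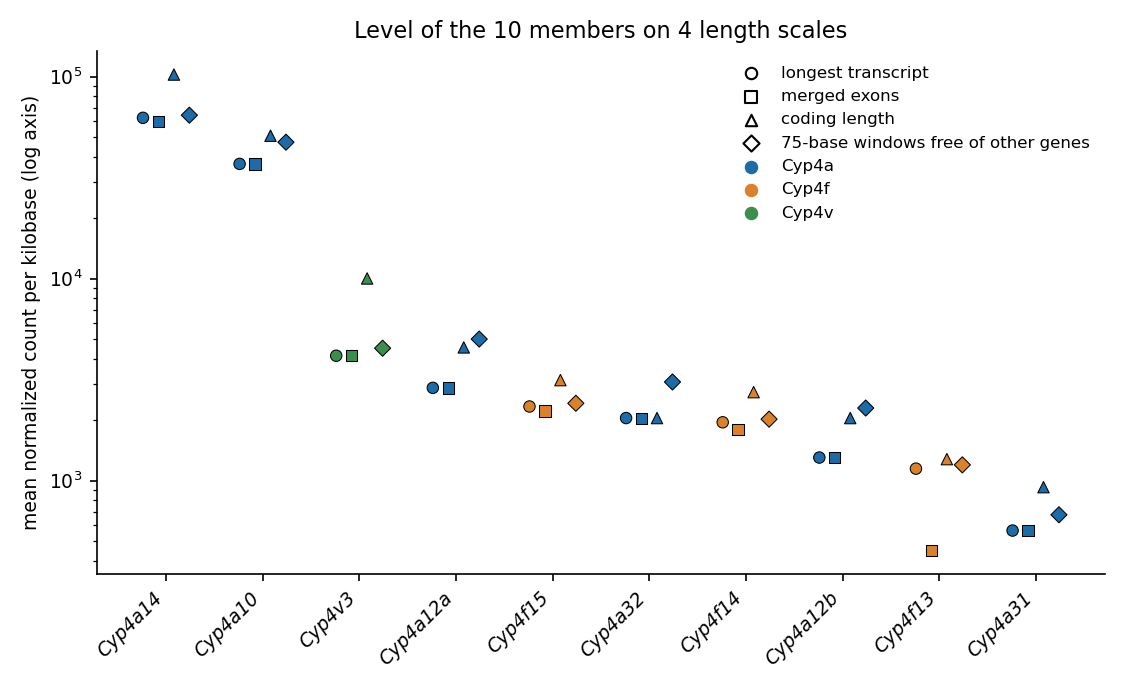
Mean normalized count per kilobase (log axis) of each member, ordered by the level per kilobase of the longest transcript, with 1 marker for each of 4 ways to measure length. Each marker is the authors' mean over both genotypes. *Cyp4a14* and *Cyp4a10* stand above the other 8 members on every scale, and the square of *Cyp4f13*, at 452 on merged exons, lies well below its other markers.

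When the subfamilies were set against each other, the Cyp4a genes held 91.7% of the summed level per kilobase of the 10 members, the Cyp4f genes 4.68% and *Cyp4v3* 3.58%. The order of the last pair turned per kilobase of coding length, with 3.98% for Cyp4f and 5.56% for *Cyp4v3*, and for the mean normalized count without length, with 4.12% and 5.73%. The sum over the Cyp4a genes was 19.6 times the sum over the Cyp4f genes. *Cyp4a14* and *Cyp4a10* alone made up 93.6% of the Cyp4a sum. With these 2 genes set aside, a comparison chosen after the levels were seen, the remaining 4 Cyp4a genes held 41.5% of the sum over the remaining 8 members. The median level of the 6 Cyp4a genes was 2459 per kilobase, beside 1944 for the 3 Cyp4f genes and 4152 for *Cyp4v3*. Per kilobase of the longest transcript, the excess of Cyp4a therefore lay in *Cyp4a14* and *Cyp4a10*. The levels of the other 4 Cyp4a genes, from 566 to 2879 per kilobase, overlapped those of the Cyp4f genes, from 1146 to 2327. Per kilobase of read-length windows found in no other gene, these ranges still overlapped, at 678 to 5020 and 1197 to 2414. The medians of the 6 Cyp4a and 3 Cyp4f genes were then 4049 and 2015. Per kilobase of coding length they were 3303 and 2742. *Cyp4a14* and *Cyp4a10* held 91.0% and 94.1% of the Cyp4a sum on these 2 scales. The 41.5% was computed for the longest transcript only. Over windows found in no other gene, *Cyp4a12a*, *Cyp4a32*, *Cyp4a12b* and *Cyp4a31* were at 5020, 3078, 2287 and 678 per kilobase. Together these 4 exceeded the Cyp4f sum of 5626 and *Cyp4v3* at 4524 combined, so they held the larger part there. Over merged exons, over coding length and without length they held the smaller part.

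Several places in the order of the lower 8 members depended on how length was measured. Over the merged exons of all transcripts, *Cyp4f13* spanned 4441 bases in place of 1752 and fell to 452 per kilobase, below *Cyp4a31*. When only windows of 75 bases found in no other gene were counted as length, *Cyp4a12a* rose to 5020 per kilobase and passed *Cyp4v3* at 4524. *Cyp4a32* rose to 3078 and passed *Cyp4f15* at 2414. The mean normalized count was not limited to reads from those windows. Levels on this scale are therefore too high if reads that fit several genes were counted. *Cyp4a32* and *Cyp4f14* also exchanged places per kilobase of coding length. The first and second places of *Cyp4a14* and *Cyp4a10* were the same on all of these scales.

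The Cyp4a members lie in 1 cluster and the Cyp4f members in another. On chromosome 4 the 6 Cyp4a members ran from *Cyp4a12a* (ENSMUSG00000066071, chr4:115299046-115332815, plus strand) to *Cyp4a32* (ENSMUSG00000063929, chr4:115600969-115621602, plus strand) over 323 kb, with *Cyp4a12b* (ENSMUSG00000078597, chr4:115411624-115439034, plus strand) and *Cyp4a31* (ENSMUSG00000028712, chr4:115563649-115579015, plus strand) between them. *Cyp4a14* (ENSMUSG00000028715, chr4:115486200-115496142) was the only member there on the minus strand, with *Cyp4a10* (ENSMUSG00000066072, chr4:115518264-115533649, plus strand) beginning 22.1 kb from its start, so the 2 most abundant members are neighbors transcribed away from each other. On chromosome 17 the 3 Cyp4f members spanned 262 kb, with *Cyp4f15* (ENSMUSG00000073424, chr17:32685627-32703352) on the plus strand and *Cyp4f14* (ENSMUSG00000024292, chr17:32905070-32917342) and *Cyp4f13* (ENSMUSG00000024055, chr17:32924688-32947402) on the minus strand. *Cyp4v3* (ENSMUSG00000079057, chr8:45304944-45333216, minus strand) was the sole Cyp4 member on chromosome 8.

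Cyp4 genes that are not members were scarce in liver. The members were chosen with earlier results of these data known, so this gap is not independent of the choice. The table lists 12 of them, 5 on chromosome 4, 6 on chromosome 17 and *Cyp4f18* on chromosome 8, and 5 of the 12 had a mean normalized count above 10. The highest was *Cyp4b1*, a P450 known mainly from lung, with a mean normalized count of 398 and 210 per kilobase. *Cyp4f17* had 367 and 125 per kilobase, *Cyp4f16* had 79.8 and *Cyp4f39* had 18.6, and *Cyp4f18*, a leukotriene hydroxylase of neutrophils, had 13.6. The 7 genes at or under 10 were *Cyp4a29*, *Cyp4a30b*, *Cyp4x1*, *Cyp4f37*, *Cyp4f40* and the pseudogenes *Cyp4b1-ps2* and *Cyp4f41-ps*. *Cyp4a30b*, whose mean normalized count was 0.482, lies next to *Cyp4a14* in the gene order, so the highest and one of the lowest Cyp4 genes of the table were neighbors.

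**Figure D2:**
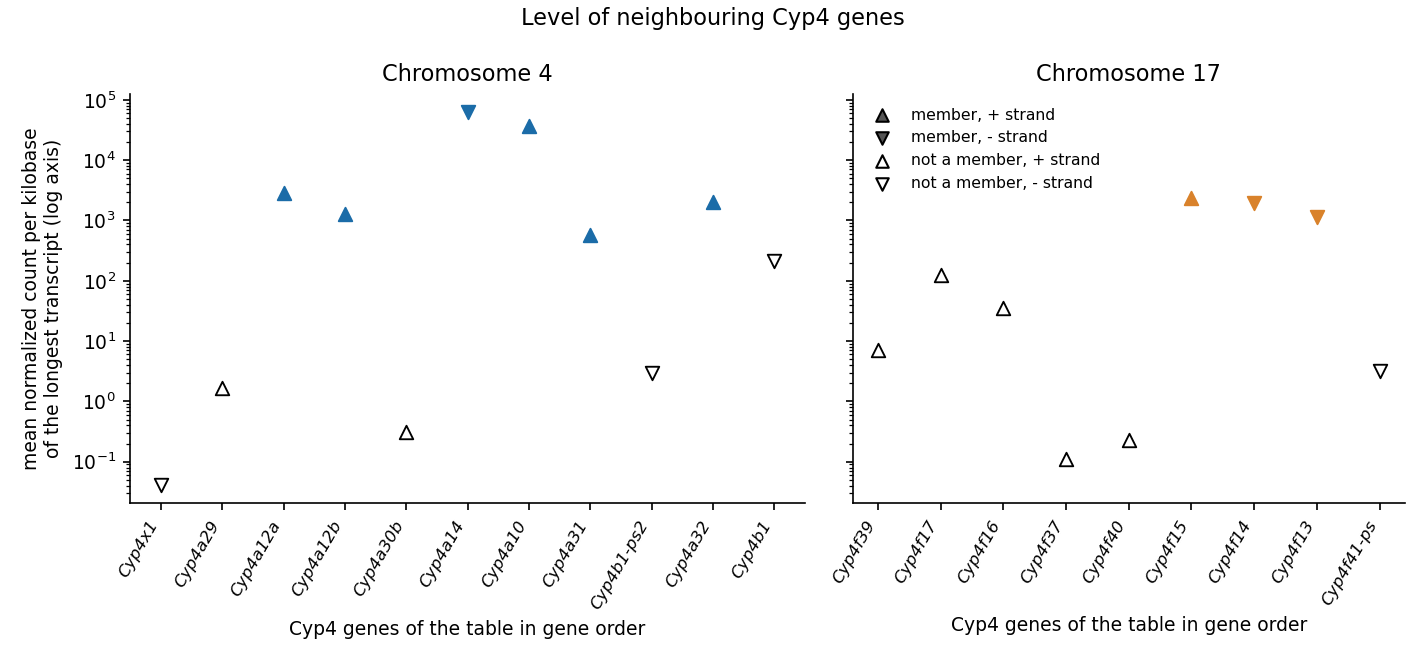
Mean normalized count per kilobase of the longest transcript (log axis) of the Cyp4 genes of the table in their order along chromosome 4 and chromosome 17, spaced evenly and not to distance. Filled triangles are members and open triangles other Cyp4 genes, pointing up for the plus strand and down for the minus strand. The members, chosen with earlier results of these data known, lie between 566 and 62513 and the other genes at 210 or below.

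Reads from some members could not be told apart by sequence. For each member, every window of 75 bases in its longest transcript was looked up as an exact match on both strands in the transcripts of all other genes. Of the windows of *Cyp4a12a*, 40.8% were found in another gene, and of those of *Cyp4a12b*, 41.3%. In both genes these were the 959 windows that the pair shares. Of the windows of *Cyp4a32*, 30.4% were shared, 302 with *Cyp4a10* and 239 with *Cyp4a31*. *Cyp4a10* shared 19.1% of its windows and *Cyp4a31* shared 13.9%, of which 185 were common to the pair. Besides *Cyp4a10* and *Cyp4a32*, with 239 windows, *Cyp4a31* matched unrelated genes at no more than 14 windows each.

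*Cyp4a14*, *Cyp4f13*, *Cyp4f14* and *Cyp4f15* were almost free of such sharing. No window of 75 bases in the longest transcript of *Cyp4a14* or *Cyp4f13* occurred in another gene. *Cyp4f14* and *Cyp4f15* shared 4 windows each, 0.186% and 0.191%, with *Cyp4f16* and *Cyp4f13* respectively. The match in *Cyp4f13* lay in a transcript other than its longest. *Cyp4v3* shared 6.40% of its windows with *Gm45753*, a gene model on the same strand that overlaps it by 313 exonic bases. With windows of 50 bases the shares rose to 48.9% for *Cyp4a12a*, 49.4% for *Cyp4a12b*, 46.8% for *Cyp4a32* and 30.5% for *Cyp4a10*, and that of *Cyp4a14* was 0.245%. How reads that fit several genes were counted is not given in the sources used here. The separate levels of *Cyp4a12a* and *Cyp4a12b*, and of *Cyp4a10*, *Cyp4a31* and *Cyp4a32*, are therefore uncertain, whereas no 75-base window of *Cyp4a14* was an exact match to another gene.

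**Figure D3:**
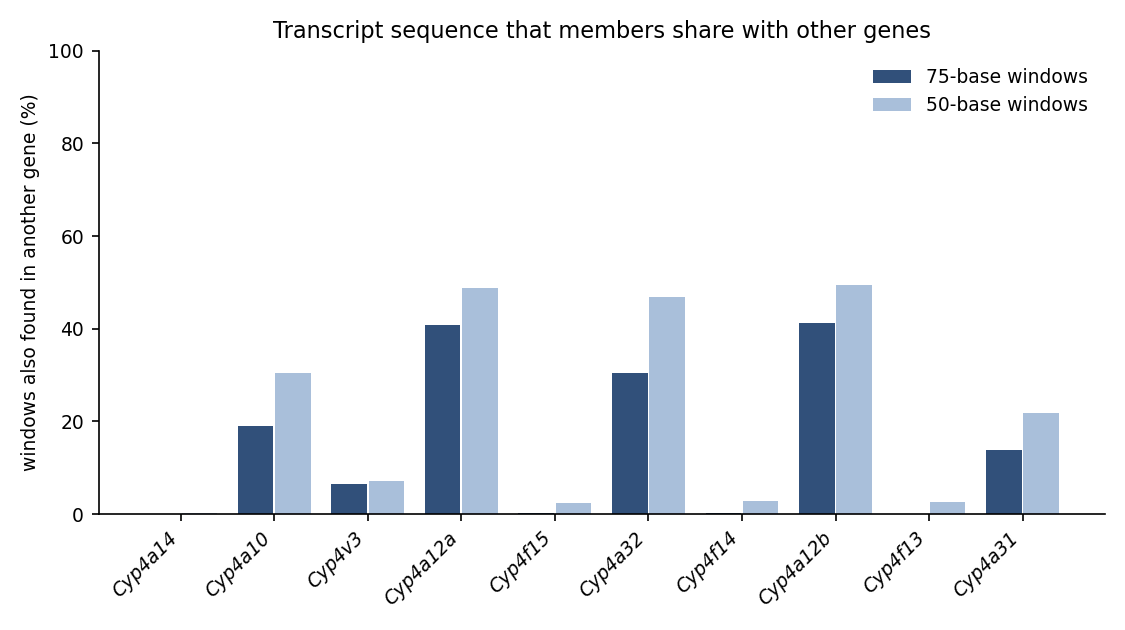
Share of the windows of each member's longest transcript that also occur in a transcript of another gene (%), for windows of 75 and 50 bases, with members in the order of their level. *Cyp4a12a*, *Cyp4a12b* and *Cyp4a32* have the tallest bars, from 30.4% to 41.3% at 75 bases, and *Cyp4a14* and the Cyp4f genes have bars at or close to 0.

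The near-copies were also summed, since a division of shared reads within a group does not alter its sum, although their removal would. *Cyp4a12a* and *Cyp4a12b* together had a mean normalized count of 10087, of which *Cyp4a12a* held 69.1%. *Cyp4a10*, *Cyp4a31* and *Cyp4a32* together had 82528, of which *Cyp4a10* held 94.5%. These groups were formed from the shared windows, after the levels had been seen.

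The proteins translated from the longest coding sequences followed the same grouping. *Cyp4a12a* and *Cyp4a12b* were identical at 97.8% of aligned residues, *Cyp4a10* and *Cyp4a32* at 96.3%, *Cyp4a10* and *Cyp4a31* at 94.5%, and *Cyp4a31* and *Cyp4a32* at 94.1%. *Cyp4a14* and *Cyp4a10*, the most abundant pair, were identical at 71.2%, and no Cyp4a member exceeded 72.2% with *Cyp4a14*. Within the Cyp4f genes, identity was 81.2% for *Cyp4f14* and *Cyp4f15*, 73.8% for *Cyp4f13* and *Cyp4f14* and 72.0% for *Cyp4f13* and *Cyp4f15*. Between a Cyp4a and a Cyp4f protein it ran from 43.8% to 47.3%, and *Cyp4v3* was identical to the other 9 at 32.1% to 36.5%.

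**Figure D4:**
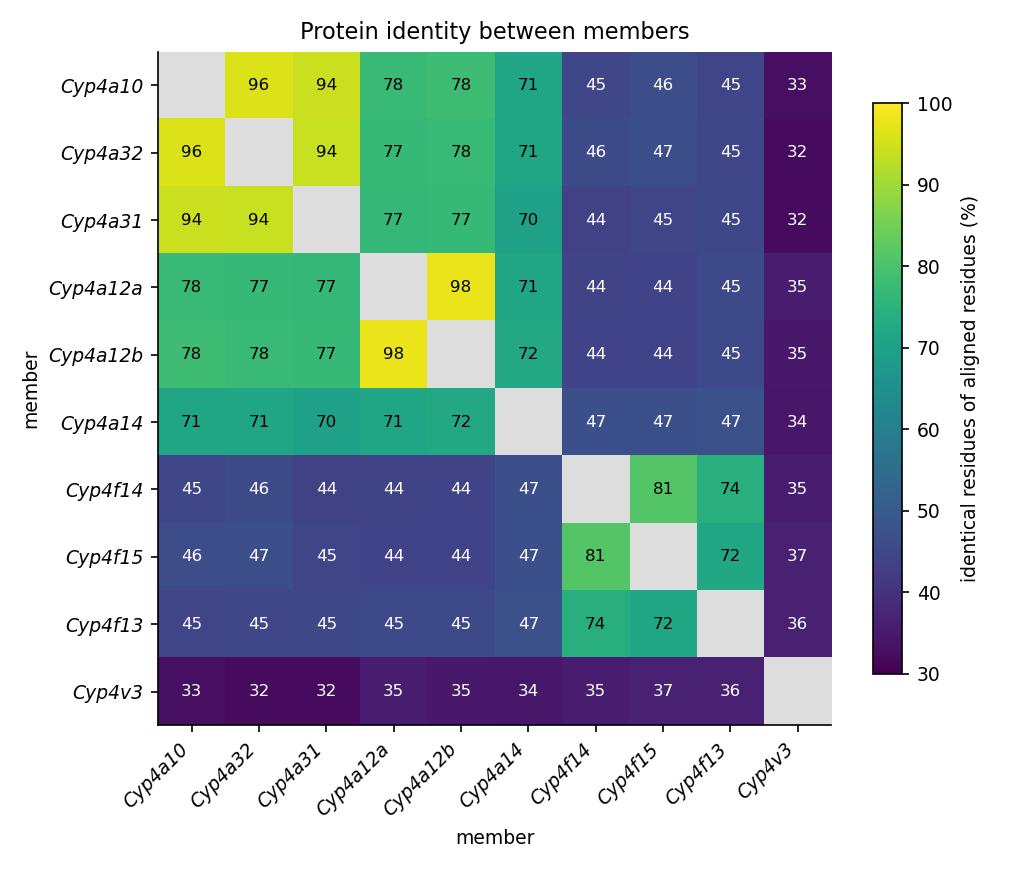
Identical residues as a percent of aligned residues for each pair of the 10 member proteins, with the value printed in each cell and the diagonal left gray. The bright blocks are *Cyp4a10*, *Cyp4a32* and *Cyp4a31*, and the pair of *Cyp4a12a* and *Cyp4a12b*. The row of *Cyp4v3* is the darkest, from 32.1% to 36.5%.

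PPARα, with its partner RXR, is known to bind a direct repeat of AGGTCA spaced by 1 base, and promoters were searched for it because Cyp4a genes are textbook targets. RefSeq promoter sequences on GRCm38.p6, from 250 bases before to 50 bases after a start site, were matched for 5 of the 10 members: *Cyp4a32*, *Cyp4f13*, *Cyp4f14*, *Cyp4f15* and *Cyp4v3*, with 4 start sites for *Cyp4f14* and 8 sequences in all. None of the 8 held the repeat on either strand with at most 2 mismatches, a match that 3.86% of all 32851 promoters held. With at most 1 mismatch the share of all promoters was 0.554%, and again 0 of the 8 matched. None of the 8 held TATAAA on the coding strand, which 8.32% of all promoters did. *Cyp4a10*, *Cyp4a12a*, *Cyp4a12b*, *Cyp4a14* and *Cyp4a31* were not searched. These windows say only that the letters are not within them.

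Among cytochrome P450 genes named by family and subfamily, the members were a major part of the liver total. The table matched 97 genes whose symbol begins with Cyp followed by a family, a subfamily and a gene number. Symbols without a subfamily letter were not counted. The 10 members held 20.1% of their summed level per kilobase, of which *Cyp4a14* alone held 10.9% and *Cyp4a10* held 6.42%. Only *Cyp2e1*, the ethanol-inducible P450, stood above *Cyp4a14*, at 187895 per kilobase. *Cyp3a11*, a drug-metabolizing P450, lay between *Cyp4a14* and *Cyp4a10* at 50784. *Cyp4v3* ranked 23 of the 97 and the other 7 members ranked from 24 to 37. Across the whole table the 10 members held 0.918% of the sum of mean normalized counts, and 9 of them stood in the highest 10% of genes per kilobase, a count made after their levels had been seen. *Cyp4a31* was the exception, with 89.9% of genes below it.

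The genes described here that act before and after the hydroxylases were abundant as well, apart from *Adh7*. Over the whole table, 12971 of 24421 genes had a mean normalized count above 10. Of the 8 alcohol and aldehyde dehydrogenases that could carry omega-hydroxy fatty acids onward, all 8 had a mean normalized count above 10, with a median of 6305 per kilobase beside 129 for all such genes. *Adh1* was the highest of them at 33673 per kilobase, and *Aldh3a2*, the fatty aldehyde dehydrogenase, was at 8794. *Adh7*, an enzyme of the stomach, was at 37.9, below the median of 129. Among the other dehydrogenases, *Aldh1a1* was at 19394 per kilobase, Aldh2 at 16046, *Adh5* at 3816, *Aldh9a1* at 3753 and *Adh4* at 2801. All 9 genes described for peroxisomal oxidation of dicarboxylic acids were above 10, with a median of 13076 per kilobase. *Scp2*, which holds a peroxisomal thiolase, was the highest of them at 29026 per kilobase, and *Ehhadh*, the bifunctional enzyme, was at 19141. *Abcd3*, the transporter that brings dicarboxylic acids into peroxisomes, was at 7628. The thiolases *Acaa1b* and *Acaa1a* were at 19069.9 and 1555 per kilobase, the acyl-CoA synthetase *Acsl1* at 13076 and *Hsd17b4*, another bifunctional enzyme, at 8105. Of the carnitine acyltransferases, *Crot* was at 14314 and *Crat* at 820.4.

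Electrons reach these enzymes through *Por*, the P450 reductase, which was at 9750 per kilobase, and through *Cyb5a*, which was at 25559. *Cyb5b* was at 2123 and the reductase *Cyb5r3* at 3250.4 per kilobase. All 4 genes of that group were above 10. The receptors *Ppara*, *Rxra* and *Hnf4a* were at 2858, 3357 and 5587 per kilobase. None of the 24 genes described from these 4 lists was above *Cyp4a10*, and 14 of the 24 were above *Cyp4v3*.

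**Figure D5:**
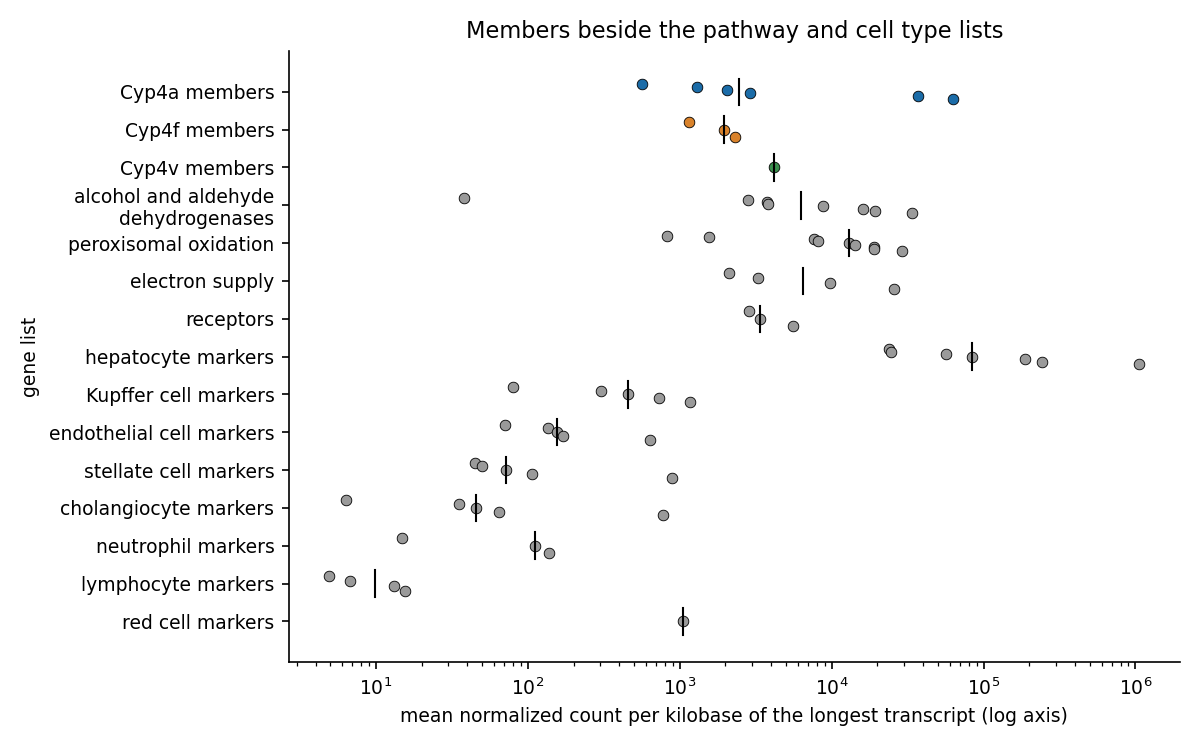
Mean normalized count per kilobase of the longest transcript (log axis) of the members and of each gene in the pathway and cell type lists, with 1 point for each gene and a vertical line at the median of the points drawn. *Hba-a1* and *Hbb-bs* are listed at 0 and are not drawn. *Cyp4a14* and *Cyp4a10* lie among the hepatocyte markers, and the markers of other liver and blood cells lie at 1166 or below.

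The tissue label was checked against cell type markers. The 7 hepatocyte markers held 12.7% of the summed level per kilobase of the table, with *Alb* at 1059760 per kilobase and the lowest of them, *Tat*, at 23887. Kupffer cell markers ran from 79.6 to 1166 per kilobase, endothelial from 70.7 to 635, stellate from 44.6 to 887, cholangiocyte from 6.31 to 776, neutrophil from 14.9 to 138 over the 3 markers in the table, and lymphocyte from 4.94 to 15.6. Among the red cell markers, *Hba-a1* and *Hbb-bs* were listed at 0 and *Alas2* was at 1049. Why both globin genes were listed at 0 was not tested, and these values are not read as an absence of red cells. For the markers above 0, fewer cells of a type and less RNA per cell cannot be told apart in whole liver.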

How the data were processed

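Hepatic mRNA from 3 WT and 3 *Pai-1*+/- mice was sequenced by the study as single-end reads of 75 bases. The submitters' processing notes name STAR, HOMER, DESeq2 and mm10. Versions, gene annotation, strand setting and the counting of reads that fit several genes are not given in the sources used here. The signal values in the authors' deposited table are read counts scaled by each library's size factor and then averaged over the libraries of both genotypes, and they alone were used. The same table holds the authors' log2 fold changes, standard errors, Wald statistics, p-values and adjusted p-values, which were not used. Whole-number counts were deposited in 6 columns headed by animal numbers that match no label, and these were not used either. A test of genotype with edgeR was planned on those counts and was not run. The means sum to 30045982. Depth per library was not computed, because those columns were not used, although it would not need the genotype.

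The mean was divided by length in kilobases from GENCODE M21, with 95.5% of 24421 symbols matched to 1 gene. Windows of 75 or 50 bases were looked up on both strands in the transcripts of other genes, and proteins were aligned end to end in Biopython 1.88 with a gap opening score of -11 and extension of -1. Promoters came from RefSeq. Calculations used pandas 2.3.3 and NumPy 2.4.6 in Python 3.11.15, with SciPy 1.17.1 and with Matplotlib 3.10.9 for plots. The lookup, alignment and motif steps were tested on simulated data. Named are all members, all other Cyp4 genes of the table, the genes of the pathway lists except 1 that is not reported here, and, chosen after their levels were seen, some cell type markers and P450 genes that rank beside a member. The members and lists were chosen with earlier results of these data known, and the pairs of members compared by ratio were chosen after their levels had been seen. Alternatives were other lengths, no length, a filter on low means, other windows and fewer mismatches.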

Additional observations from a re-analysis of the deposited data

How the results depend on the processing

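The share of the members' summed level held by the Cyp4a genes, 91.7% per kilobase of the longest transcript, was 92.3% per kilobase of merged exons, 90.5% per kilobase of coding length, 92.4% over 75-base windows free of other genes and 90.1% for the mean normalized count without length. Leaving out members with less than 50% of their windows free removed no gene. The number of members in the highest 10% of genes was 9, and from 8 to 10 under the other lengths, without length and among genes above a mean normalized count of 10. The level of a single member was 1.03 to 1.76 times that per kilobase of the longest transcript over free windows, 1 to 2.41 times over coding length and 0.395 to 1 times over merged exons. Because the same mean normalized count was divided each time, these ratios follow from the lengths alone. Windows of 50 bases also left every member at least 50% free, and at most 1 mismatch gave the same 0 promoters. No paired analysis was possible because the columns of counts carry no replicate number and could not be tied to the samples. For that reason the edgeR test, its DESeq2 alternative, the fit without a filter and the fits that leave out 1 replicate were not run. Depth per library, counting error and the spread between mice were not computed for the levels here, because those columns were not used.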
